A study of Mus musculus with 6 samples.

Results

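Heat shock proteins and their DnaJ partners are the chaperones that fold new proteins, hold or refold damaged ones and pass the rest on for degradation. The accessibility of their promoters was described here from 124 intervals of an ATAC-seq count table of mouse muscle nuclei, out of 39768 intervals in all. An interval was a member where its midpoint lay within 1 kb of a transcription start site (TSS) of a protein-coding gene whose symbol starts with Hspa, Hspb, Hspd, Hspe, Hsph, Hsp90, Dnaja, Dnajb or Dnajc, in the GENCODE vM1 annotation of mm9. The symbols take in a few genes that are no heat shock proteins, such as Hspb11, a part of the intraflagellar transport machinery, Hspbp1, a co-chaperone, and Hspbap1. ATAC-seq cuts exposed DNA with the Tn5 transposase, so a count of fragment ends in an interval measures how open its chromatin is. Libraries were made from 50000 nuclei each of mice labelled C57BL/6 (the methods name C57BL/6N for the backcross) and aged 7 weeks. The 3 CTL libraries, which the labels call WT, came from H2A.Z-1 flox/flox and H2A.Z-2 flox/flox mice that were HSA CRE negative, and the 3 libraries labelled H2A.Z dKO from mice with these floxed alleles that were HSA CRE positive. Both groups thus carried the floxed alleles of both H2A.Z genes, and HSA CRE, driven by the human skeletal actin promoter, acts in muscle fibres, while nuclei of other cells of the muscle keep H2A.Z. Samples were labelled as tibialis anterior muscle, whereas the methods section speaks of hind limb muscles. Labels give replicate numbers but do not say whether each library came from a separate mouse, so p-values measure only the spread between these libraries.

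Members of the Hspa family are the ATP-driven chaperones that bind unfolded segments, DnaJ proteins bring them their clients, nucleotide exchange factors such as Hsph1 and Hspa4 release them, and Hsp90 proteins mature signalling clients. Small heat shock proteins of the Hspb family, abundant in striated muscle, hold unfolding proteins and protect the sarcomere. Heat shock factors bind repeats of the unit GAA in alternating orientation, each unit separated by a pair of bases, and thereby induce many of these genes under stress, while genes of the endoplasmic reticulum answer to unfolded proteins in that compartment through an ER stress element.

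The sequences are shown first, since the promoters of this group are known for these elements. A run of 3 alternating units of GAA and TTC, spaced by any 2 bases and read on both strands, lay in the 300 bases around the midpoint of 6 of the 124 intervals (4.84%) and of 58 of the 20046 promoter intervals of protein-coding genes (0.289%), the 6 included. These 6 windows of 29 bases are given 5′ to 3′ on the strand of the gene from the mm9 genome, with the alternating units and the bases between them in capitals.
Hspe1 (chr1:55144895-55144923, plus strand): acggtccgTTCTAGAACCTTCCGGAAggc
Dnaja1 (chr4:40669559-40669587, plus strand): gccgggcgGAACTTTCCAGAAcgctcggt
Dnajb6 (chr5:30062384-30062412, plus strand): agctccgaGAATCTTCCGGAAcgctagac
Hsph1 (chr5:150438855-150438883, minus strand): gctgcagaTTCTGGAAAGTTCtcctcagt
Hspa8 (chr9:40609138-40609166, plus strand): gcgagcgtGAAAGTTCCAGAAcgccgcgg
Hsp90aa1 (chr12:111934589-111934617, minus strand): gagggttcTTCCGGAAGGTTCcggaggct
The first window lies in the interval shared by Hspe1 and Hspd1, the co-chaperonin and the chaperonin of the mitochondrion, starts 81 bases before the Hspe1 TSS and holds a further unit. Windows of Dnaja1, Hsph1 and Hspa8 lay 46 to 74, 30 to 58 and 71 to 99 bases after the nearest TSS, and that of Hsp90aa1 spanned its TSS. A run of letters is a description of the sequence, and nothing was measured here on the binding of a factor.

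A pair of facing units, GAANNTTC, which reads the same on both strands and is part of many longer runs, was more widespread. It lay in 22 of the 124 windows (17.7%) and in 939 of the 20046 (4.68%). These 22 intervals belonged to 16 genes: Hspa1a, Hspa1b, Hspa8, Hspb1, Hspb2, Hspb6, Hspb8, Hspe1, Hsph1, Hsp90aa1, Hsp90ab1, Dnaja1, Dnajb1, Dnajb4, Dnajb5 and Dnajb6. None of the 46 Dnajc intervals held it in this window, whereas 8 of 24 Hspb and 3 of 6 Hsp90 intervals did. The opposite pair, TTCNNGAA, lay in 12 intervals (9.68%) and in 6.01% of the promoter intervals. Upstream of Hspa1a and Hspa1b, the stress-inducible cytosolic chaperones, the facing pair is shown in capitals with 30 bases of its surroundings on each side, and Hsp90ab1, the constitutive cytosolic Hsp90, carried the same 8 letters in an intronic interval shown whole.
Hspa1a (chr17:35109168-35109235, minus strand): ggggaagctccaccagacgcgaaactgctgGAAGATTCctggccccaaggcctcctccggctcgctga
Hspa1b (chr17:35096250-35096317, minus strand): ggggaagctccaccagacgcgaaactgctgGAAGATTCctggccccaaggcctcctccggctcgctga
Hsp90ab1 (chr17:45709558-45709645, minus strand): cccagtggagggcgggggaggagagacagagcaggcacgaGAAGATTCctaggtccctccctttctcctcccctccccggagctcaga
Both Hspa1 windows were the same sequence. Of the 150 bases upstream of each TSS, a stretch of 116 aligned with 116 identical bases and 0 mismatches, so fragments from these 2 genes may have been split or lost between them, and their counts are uncertain for that reason.

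An ER stress element, CCAAT and CCACG placed 9 bases apart, occurred in 1 of the 124 windows (0.806%) and in 0.0649% of the promoter intervals. It belonged to Dnajc3, a co-chaperone of the endoplasmic reticulum, and is in capitals in the 79 bases below, which start 135 bases before the TSS.
Dnajc3 (chr14:119337019-119337097, plus strand): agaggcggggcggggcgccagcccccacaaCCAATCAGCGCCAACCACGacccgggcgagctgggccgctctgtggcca
Other promoter letters were also counted in the windows around interval midpoints: CCAAT on either strand lay in 29.8% of the chaperone windows and 30.3% of all, and TATAAA in 3.23% and 4.16%. The median GC content was 62.2% in the chaperone windows and 64.3% in all promoter windows. In a window placed by the gene instead, from 250 bases before to 50 after the annotated start, the run of 3 units lay in 1.33% of 75 chaperone gene records and 0.483% of 22367, and GAANNTTC in 14.7% and 7.56%, a smaller contrast than in windows centred on the open intervals. In that window TTCNNGAA was less frequent in the chaperone records (6.67%) than in all (7.81%), the reverse of its order around the interval midpoints, TATAAA lay in 8.0 and 13.4%, CCAAT in 42.7 and 37.9%, and the ER stress element in 2 of the 75 chaperone records (2.67%) and in 0.0984% of all. For the most accessible chaperone promoter, that of Hspa2, the 150 bases upstream of the TSS are given without capitals, since neither pair of units occurs in them.
Hspa2 (chr12:77505013-77505162, plus strand): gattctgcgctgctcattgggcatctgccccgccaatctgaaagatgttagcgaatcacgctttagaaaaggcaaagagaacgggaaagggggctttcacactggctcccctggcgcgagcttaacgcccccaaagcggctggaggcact

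Library totals ran from 3520008 to 6117245 counts, and the chaperone intervals held 0.562 to 0.583% of them. Counts were divided by interval width and by library totals scaled with TMM factors, giving RPKM (counts per kilobase of interval relative to the scaled library total), the level used throughout. H2A.Z dKO replicate 1 stood apart, with 75.2% of its counts in promoter intervals against 71.3 to 73.1% in the other libraries. At the promoters of H2afz and H2afv, which encode both H2A.Z proteins, the 5 intervals overlapped between the groups, and a promoter count does not test whether a floxed exon was lost, so the groups rest on the labels. Intervals at marker genes of muscle fibres (8 of 12 genes with an interval) summed to 362 to 488 CPM (counts relative to the library total) in CTL and 382 to 503 in H2A.Z dKO. Fibroblast markers (4 of 6 genes) summed to 77.3 to 95 and 91.8 to 104. Macrophage and satellite cell markers had no interval.

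By the rule 74 genes were chaperone genes, and 59 of them (79.7%) had at least 1 interval, compared with 49.2% of 22238 protein-coding genes. Of the 59 genes, 19 had 1 interval, 25 had 2 and 15 had 3 or more, up to 5 for Dnajb5. Coverage was 11 of 13 genes in the Hspa family, 8 of 10 in Hspb, both of Hspd1 and Hspe1, the single Hsph gene, 2 of 3 in Hsp90, 3 of 4 in Dnaja, 8 of 13 in Dnajb and 24 of 28 in Dnajc. The methods give more union intervals than the 39768 of the table used here, so a gene without an interval in it is not shown to lack an open promoter. The 15 genes with no interval in the table analysed here were Hspa5, Hspa9, Hspb3, Hspb7, Hsp90b1, Dnaja4, Dnajb7, Dnajb8, Dnajb9, Dnajb13, Dnajb14, Dnajc5g, Dnajc6, Dnajc17 and Dnajc22. They include Hspa5 and Hsp90b1, the main chaperones of the endoplasmic reticulum, and Hspa9, that of the mitochondrial matrix.

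The chaperone intervals were more open than promoter intervals at large. Their median level was 164 RPKM (quartiles 130.2 and 203), against 133 RPKM (quartiles 103 and 175) over the 20046 promoter intervals, while the median width was alike, 195 and 196 bp. Per library the median of the chaperone intervals was 166, 162 and 157 RPKM in CTL and 168, 154 and 158 RPKM in H2A.Z dKO, here and below in the order of replicates 1, 2 and 3. All 6 of these medians lay above those of the promoter intervals in any library, which ran from 128 to 142 RPKM. When each gene was taken at its most open interval, the median was 182 RPKM for the 59 chaperone genes and 150.5 RPKM for 10942 protein-coding genes. These are descriptions of level, without a test.

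Families differed in level. Hsph1 had the highest median, 281 RPKM over 2 intervals, followed by the interval of Hspd1 and Hspe1 with 209, Dnajb with 182 over 21, Hspa with 177 over 20, Hspb with 164 over 24, Hsp90 with 159 over 6 and Dnaja with 158 over 4. Dnajc, the most diverse family, was lowest with 134 RPKM over 46 intervals, near the median of all promoters. Ranges overlapped widely, from 69.9 to 326 RPKM within Dnajc and from 95.7 to 366 within Hspa, so the order of families with close medians does not separate them.

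**Figure D1:**
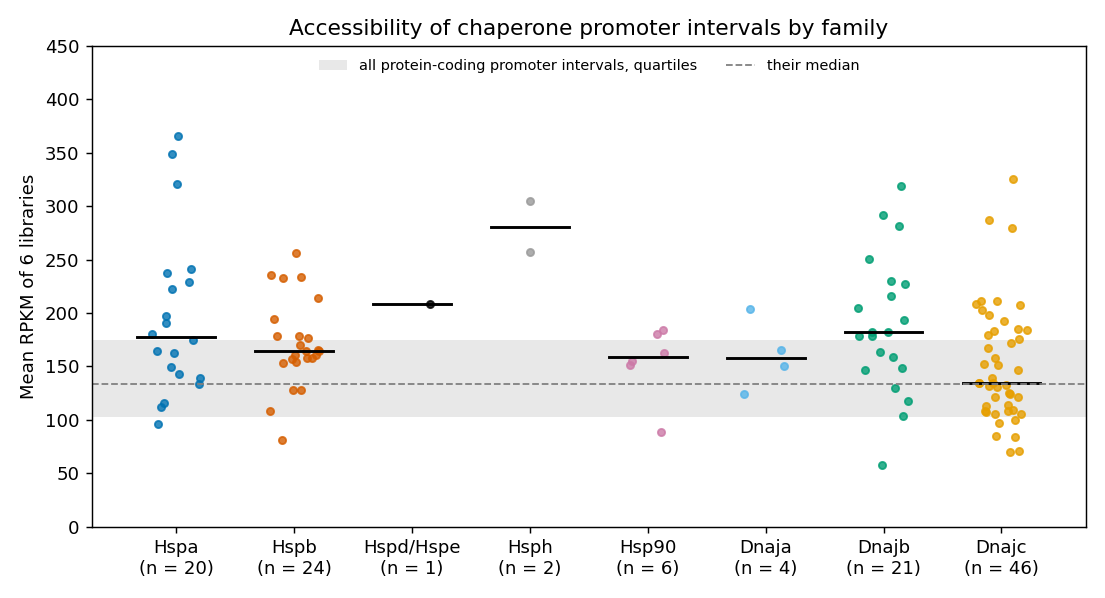
Mean RPKM of the 6 libraries for each chaperone interval (points) by gene family, with the family median as a black bar and the median and quartiles of all 20046 protein-coding promoter intervals in grey. The Dnajc median lies at 134 RPKM, beside 133 for all promoter intervals, and the other families have higher medians.

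Most intervals sat at the start of the gene. The midpoint lay within 100 bp of the nearest TSS in 53 intervals and within 200 bp in 86. By the gene models 57 were upstream, 29 in an untranslated exon, 6 in a coding exon, 31 in an intron and 1, at Hspb9, past the gene end. Intervals from 200 bp upstream to the TSS were widest, with a median of 309 bp over 56 intervals, compared with 111 bp over 10 intervals more than 500 bp upstream and 79 bp over 9 more than 500 bp downstream. Level followed no such order, and the medians of these 3 classes were 165, 156 and 178 RPKM. The rule's limit of 1 kb left out 2 Hspbap1 intervals near it, whose midpoints lay 1015.5 and 1061 bp from the TSS and whose mean levels were 126 and 196 RPKM. The farthest interval it took in, at 989.5 bp, had 282 RPKM. A total of 33 intervals also lay within 1 kb of a TSS of a protein-coding gene outside the group, and 15 overlapped the one before them, and a fragment end in such a stretch can have entered both counts.

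**Figure D2:**
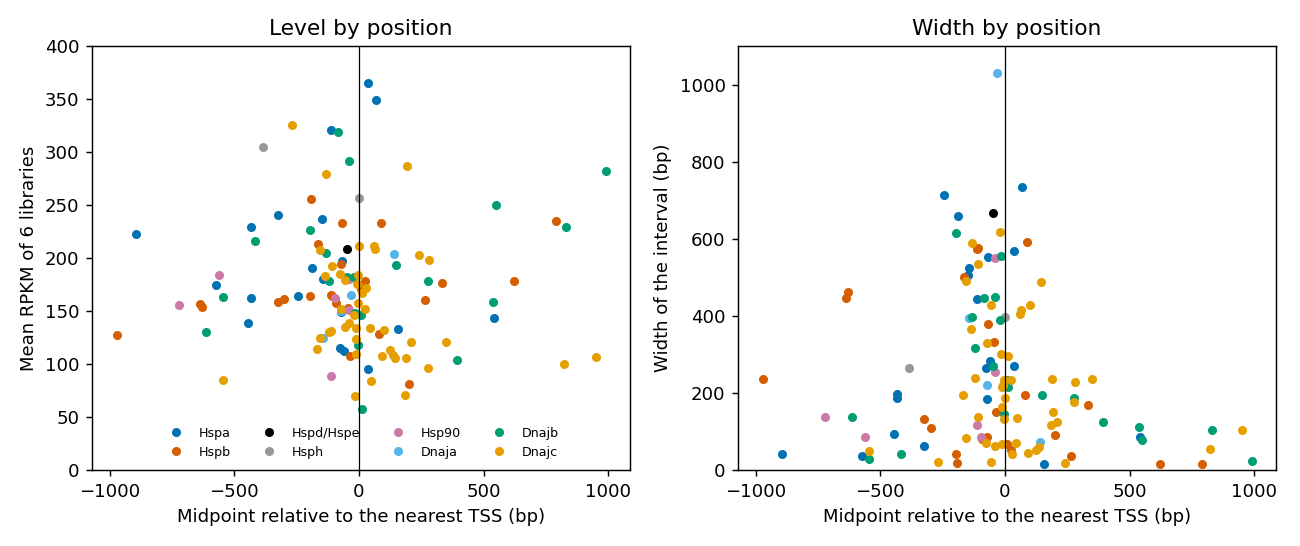
Mean RPKM (left) and width in bp (right) of each chaperone interval against the distance of its midpoint from the nearest TSS in bp, coloured by family, negative values upstream. Wide intervals cluster at the TSS, whereas levels above 200 RPKM are found on both sides and as far as 989.5 bp from it.

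The comparison of H2A.Z dKO with CTL addresses whether chaperone promoters were as open in the libraries labelled H2A.Z dKO as in controls. None of the 124 intervals was called by edgeR's quasi-likelihood test at a Benjamini-Hochberg adjusted p under 0.05, as was none of the 39768 (0.0%), and the smallest adjusted p among the chaperone intervals was 0.972. DESeq2 also called 0. At an unadjusted p under 0.05 edgeR had 2 of 124 lower in H2A.Z dKO, against 2.31% of all intervals, and 0 higher, against 2.64%, while DESeq2 had 0. The share of all intervals in both directions was 4.95% by edgeR and 1.9% by DESeq2. The chaperone count and that share both varied with the libraries kept. Leaving out H2A.Z dKO replicate 1 raised the count from 2 to 7 (all intervals 7.95%) and leaving out H2A.Z dKO replicate 2 to 5 (5.38%), whereas without CTL replicate 3 it was 0 (3.18%), and among intervals that reached 20 counts in all libraries it was 1 of 113 (3.5%). The levels of the groups did not overlap in 9 intervals that were lower in H2A.Z dKO (7.26%), against 6.13% of all intervals, and in 3 that were higher (2.42%), against 4.88%.

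Changes were small in both directions. The log2 fold change of H2A.Z dKO over CTL was positive in 58 and negative in 66 intervals and ran from -0.77 to 0.41. Its median was -0.025 over the chaperone intervals, 0.011 over promoter intervals and 0.012 over all intervals, and it was -0.052 without H2A.Z dKO replicate 1 and 0.011 without H2A.Z dKO replicate 2, so its sign rested on 1 library. The precision allows more to be said than the lack of calls does: the 95% confidence interval (CI) lay within a 2-fold change either way for 118 intervals (95.2%) and within 1.5-fold for 87 (70.2%). Precision went with depth. The median half-width of the CI was 0.26 on the log2 scale in the 58 intervals with 100 or more counts in every library, 0.44 in 55 intervals with 20 to 99 in the lowest library and 0.62 in 11 with fewer.

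**Figure D3:**
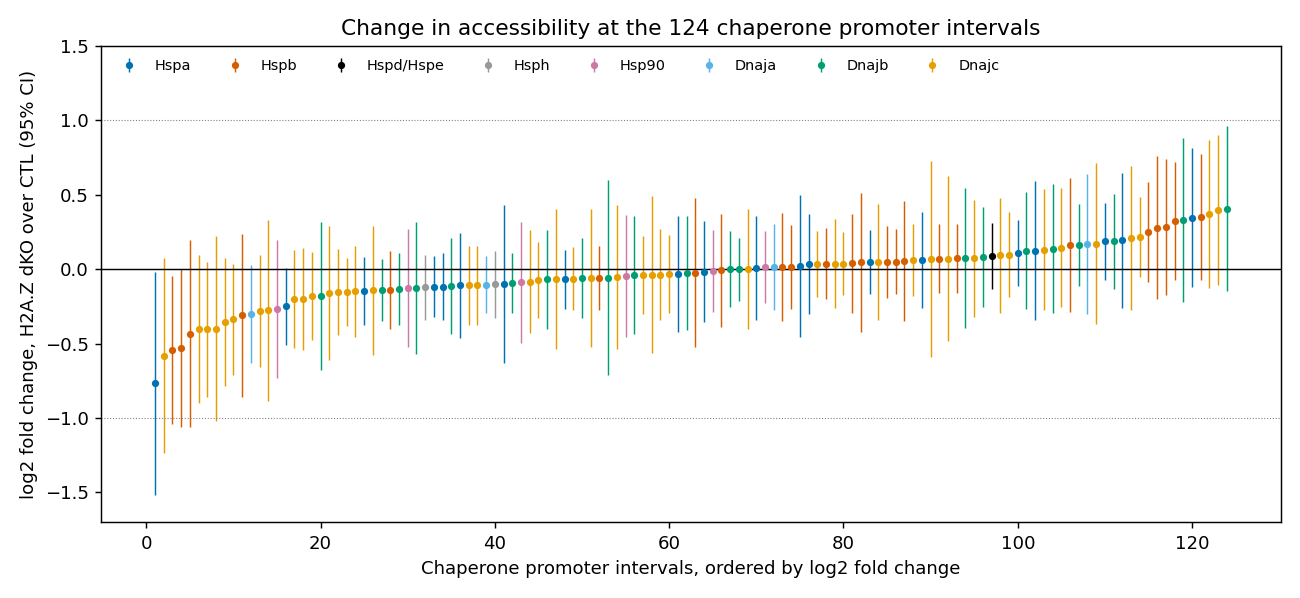
log2 fold change of H2A.Z dKO over CTL for the 124 chaperone intervals in ascending order, coloured by family, with 95% CIs from edgeR as bars and dotted lines at a 2-fold change either way. Values run from -0.77 to 0.41, 58 of them positive, and 118 of the CIs stay between the dotted lines.

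Hspa2, an Hspa member best known from spermatogenesis, had the most open interval of the group at its TSS (Peak_27696, chr12:77504916-77505484), with 349.8, 379 and 396 RPKM in CTL and 329, 372 and 367 RPKM in H2A.Z dKO. Both groups spanned much the same range, and the log2 fold change was -0.067 ± 0.095 (SE, 95% CI -0.26 to 0.13). Hspa8, a cytosolic chaperone expressed with and without stress, came next at its TSS (Peak_19751, chr9:40608769-40609504), with 316, 352 and 363 RPKM in CTL and 411, 346 and 305 RPKM in H2A.Z dKO. H2A.Z dKO replicate 1 was the highest and replicate 3 the lowest of all 6 libraries there, so the groups overlapped fully. The log2 fold change of Hspa8 was 0.049 ± 0.10 (SE, 95% CI -0.17 to 0.27). Its run of alternating units, in the 29-base window shown above, lies inside this interval, downstream of the TSS.

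The inducible Hspa1a and Hspa1b lie close together on chromosome 17 and had levels above the median of promoters. Hspa1b (Peak_35475, chr17:35096041-35096700) had 201, 192 and 204 RPKM in CTL and 191, 174 and 182 RPKM in H2A.Z dKO. Every library labelled H2A.Z dKO was below every CTL library, by a small margin, and the log2 fold change was -0.12 ± 0.099 (SE, 95% CI -0.32 to 0.086). Hspa1a (Peak_35477, chr17:35108955-35109669), whose interval is also within 1 kb of the TSS of Hspa1l, had 179.6, 168 and 171 RPKM in CTL and 164, 131 and 171 RPKM in H2A.Z dKO. Here the groups overlapped, with H2A.Z dKO replicate 2 alone well below the rest, and the log2 fold change was -0.15 ± 0.11 (SE, 95% CI -0.38 to 0.083). With the upstream sequences of this pair identical over 116 bases, neither value can be assigned to 1 gene with certainty.

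Other Hspa genes varied between libraries as well. Hspa14, a chaperone bound to ribosomes, shares its promoter with Cdnf on the other side (Peak_2542, chr2:3429977-3430422) and had 350.1, 326 and 372 RPKM in CTL and 224, 332 and 323 RPKM in H2A.Z dKO. H2A.Z dKO replicate 1 was far below the other 5 libraries, and the log2 fold change of -0.25 ± 0.12 (SE, 95% CI -0.51 to 0.011) ranged from -0.35 to -0.083 when single libraries were left out. Hspa4, a nucleotide exchange factor for Hspa proteins (Peak_24351), averaged 174 ± 4.22 RPKM (SD, n = 3) in CTL and 186 ± 16.5 RPKM (SD, n = 3) in H2A.Z dKO. Hspa13, of the endoplasmic reticulum, had its highest level in an interval 62 bp wide (Peak_34227) that was 206, 227 and 247 RPKM in CTL and 342, 205 and 217 RPKM in H2A.Z dKO, with replicate 1 of H2A.Z dKO alone above the others. Its log2 fold change was 0.19 ± 0.22 (SE, 95% CI -0.26 to 0.65). The 507-bp interval in which it is nested (Peak_34226, mean 237 RPKM) had the opposite sign, -0.12 ± 0.11 (SE, 95% CI -0.34 to 0.11). Across the 20 Hspa intervals the median log2 fold change was -0.0034, with 10 positive, 0 called and 1 (5.0%) lower in H2A.Z dKO at an unadjusted p under 0.05, beside 2.31% of all intervals.

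That 1 was an interval of 17 bp in an intron of Hspa12b, an Hspa relative expressed in endothelial cells (Peak_4373, chr2:130953378-130953395), where CTL had 18, 11 and 12 counts and H2A.Z dKO 15, 5 and 6. It had 173, 140.1 and 200.5 RPKM in CTL and 155, 63.4 and 68.9 RPKM in H2A.Z dKO, so replicate 1 of H2A.Z dKO lay among the CTL values, and the log2 fold change was -0.77 ± 0.36 (SE, 95% CI -1.52 to -0.017), the largest of the group in either direction. Its adjusted p by edgeR was 0.972. Without replicate 1 of H2A.Z dKO the log2 fold change was -1.33. The wider interval at the TSS of the same gene (Peak_4372, 269 bp) had a log2 fold change of -0.032 ± 0.19 (SE, 95% CI -0.42 to 0.36). Intervals at endothelial marker genes (5 of 7 genes, with Pecam1 and Emcn lacking an interval) summed to 71.2 to 82.2 CPM in CTL and 56.2 to 66.1 in H2A.Z dKO, without overlap, and their part in the Hspa12b values was not tested. In bulk nuclei, fewer nuclei of a type and less open chromatin per nucleus cannot be told apart.

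Hspb1, a small heat shock protein that protects actin filaments and the sarcomere, supplied the second. Its interval 195.5 bp before the TSS (Peak_11899, chr5:136363573-136363614) is 41 bp wide. It is shown whole, as 42 bases with both end positions counted, without the pair of units, which lies outside it.
Hspb1 (chr5:136363573-136363614, plus strand): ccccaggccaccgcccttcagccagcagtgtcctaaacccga
It had 159.8, 222 and 208 RPKM in CTL and 145, 131 and 119 RPKM in H2A.Z dKO, and every H2A.Z dKO library was below every CTL library. The log2 fold change was -0.54 ± 0.24 (SE, 95% CI -1.04 to -0.045) and its adjusted p by edgeR 0.972. A 19-bp interval nested in it (Peak_11900) counted part of the same fragment ends and had a log2 fold change of -0.53 ± 0.26 (SE, 95% CI -1.06 to 0.0024), so it is no second observation. The 333-bp interval over the TSS of Hspb1 (Peak_11901) showed less of this, with 161 ± 12.3 RPKM (SD, n = 3) in CTL, 146 ± 5.45 RPKM (SD, n = 3) in H2A.Z dKO and a log2 fold change of -0.14 ± 0.13 (SE, 95% CI -0.40 to 0.12). All 4 Hspb1 intervals had negative log2 fold changes, the intronic one (Peak_11902) with -0.43.

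Hspb6, a small heat shock protein abundant in slow muscle and heart, went both ways. Its most open interval (Peak_15014, chr7:31337284-31337664) had 240.5, 236 and 239 RPKM in CTL and 224, 230.2 and 230.2 RPKM in H2A.Z dKO, with all H2A.Z dKO values below all CTL values by a few RPKM, and a log2 fold change of -0.058 ± 0.10 (SE, 95% CI -0.27 to 0.16). The neighbouring interval of 86 bp upstream (Peak_15013, chr7:31337084-31337170) had 196, 166 and 155 RPKM in CTL and 216, 198 and 236 RPKM in H2A.Z dKO, all H2A.Z dKO values above all CTL values, with a log2 fold change of 0.32 ± 0.19 (SE, 95% CI -0.072 to 0.72). Neither passed an unadjusted p under 0.05. Both lie also near the TSS of BC053749.

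Hspb8, which works with the co-chaperone Bag3 in clearing damaged filamin, had 3 overlapping intervals at its TSS, the most open of which (Peak_11309, chr5:116872697-116873270) had 176, 166 and 141 RPKM in CTL and 168, 158 and 182 RPKM in H2A.Z dKO. The groups overlapped, and the log2 fold change was 0.072 ± 0.11 (SE, 95% CI -0.16 to 0.30). Hspb2 lies head to head with Cryab, the alpha B crystallin gene and itself a small heat shock gene of muscle, and all 4 Hspb2 intervals lie within 1 kb of a Cryab TSS as well. The one with the highest level (Peak_20039, 37 bp) averaged 163 ± 26.9 RPKM (SD, n = 3) in CTL and 158 ± 10.7 RPKM (SD, n = 3) in H2A.Z dKO, and the wide one further from the Hspb2 TSS (Peak_20041, 462 bp) averaged 152 ± 3.96 RPKM (SD, n = 3) and 156 ± 15.1 RPKM (SD, n = 3). Hspb11 shares its promoter with Lrrc42, and its interval of 134 bp (Peak_8407) had 150.4, 142 and 125 RPKM in CTL and 238, 143 and 150.1 RPKM in H2A.Z dKO. Replicate 1 of H2A.Z dKO alone was high there, and the log2 fold change of 0.35 ± 0.20 (SE, 95% CI -0.070 to 0.77) became 0.071 without it. The 592-bp interval over the Hspb11 TSS (Peak_8408) had 0.017 ± 0.13 (SE, 95% CI -0.26 to 0.30). Over the 24 Hspb intervals 16 log2 fold changes were positive, the median was 0.043, and groups did not overlap in 4 lower (16.7%, 2 of them the nested pair at Hspb1) and 1 higher (4.17%), beside 6.13 and 4.88% of all intervals. The 24 include the intervals of Hspb11, Hspbp1 and Hspbap1, which are no small heat shock proteins and were all positive. The other Hspb genes had values in both directions, with overlapping intervals at Hspb1, Hspb2 and Hspb8.

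**Figure D4:**
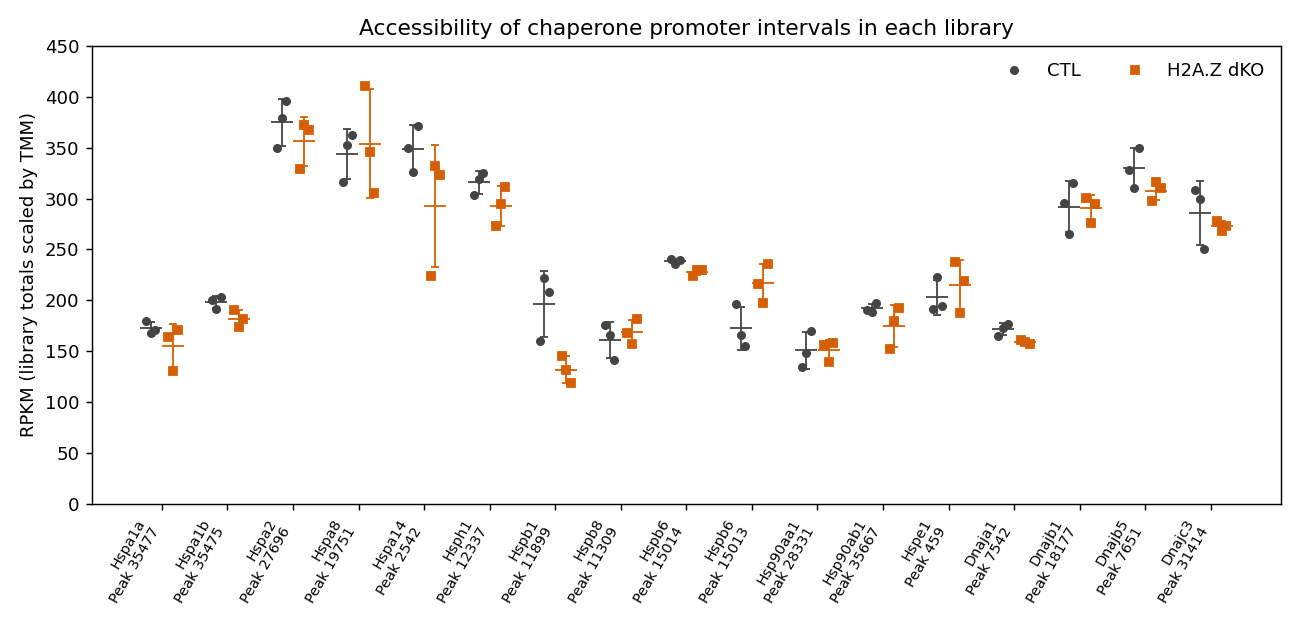
RPKM of 17 chaperone intervals in each library, with CTL replicates 1 to 3 as circles and H2A.Z dKO replicates 1 to 3 as squares from left to right, and the mean and SD (n = 3) as bars. Groups overlap in most genes, and do not at Hspb1 (Peak_11899), Hspa1b, Dnaja1 and both Hspb6 intervals.

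The cytosolic Hsp90 genes were moderately open. Hsp90aa1, the inducible one (Peak_28331, chr12:111934371-111934922), had 134, 148 and 170.1 RPKM in CTL and 156, 139 and 158 RPKM in H2A.Z dKO, and its log2 fold change was 0.015 ± 0.12 (SE, 95% CI -0.23 to 0.25). Its run of alternating units lies in this interval. The most open Hsp90ab1 interval (Peak_35667, chr17:45710737-45710822) had 191, 188 and 197 RPKM in CTL and 153, 180.0 and 193 RPKM in H2A.Z dKO and a log2 fold change of -0.13 ± 0.19 (SE, 95% CI -0.53 to 0.27), and the intronic interval shown above with its facing pair (Peak_35665) had -0.089 ± 0.20 (SE, 95% CI -0.50 to 0.32). Groups overlapped in all 6 Hsp90 intervals, while of all intervals 6.13% were lower and 4.88% higher without overlap. In 5 of the 6 the log2 fold change was negative, whereas 52.5% of all intervals had a positive one. So few intervals do not set the family apart. Hsph1, a nucleotide exchange factor related to Hspa4, had 304, 319 and 325 RPKM in CTL and 273, 294 and 312 RPKM in H2A.Z dKO in its upstream interval (Peak_12337, chr5:150439204-150439469) and a log2 fold change of -0.10 ± 0.11 (SE, 95% CI -0.33 to 0.12). At its TSS (Peak_12336), where the run of units lies, the value was -0.12 ± 0.11 (SE, 95% CI -0.34 to 0.098).

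The mitochondrial chaperonin genes Hspd1 and Hspe1 are transcribed away from each other out of 1 interval of 666 bp (Peak_459, chr1:55144597-55145263). It had 192, 223 and 194 RPKM in CTL and 238, 188 and 219 RPKM in H2A.Z dKO, with the ranges of the groups overlapping and a log2 fold change of 0.089 ± 0.11 (SE, 95% CI -0.14 to 0.31). Dnaja3, a DnaJ protein of the same compartment whose promoter is shared with Vasn (Peak_33178), had 165, 152 and 181 RPKM in CTL and 125, 121 and 156 RPKM in H2A.Z dKO and a log2 fold change of -0.30 ± 0.16 (SE, 95% CI -0.63 to 0.028). Dnajc19, part of the import motor of the inner membrane (Peak_5637, chr3:33980283-33980353, 70 bp), had 194, 179 and 252 RPKM in CTL and 155, 160.1 and 167 RPKM in H2A.Z dKO, all H2A.Z dKO values below all CTL values, and a log2 fold change of -0.35 ± 0.21 (SE, 95% CI -0.78 to 0.077). In the list of mitochondrial members, 7 of 8 genes had an interval, and of their 10 intervals 3 had positive and 7 negative log2 fold changes with a median of -0.11. None of the 10 was called or passed an unadjusted p under 0.05 by edgeR. Of all intervals 0.0% were called, and 2.31% were lower and 2.64% higher at that unadjusted p. Groups did not overlap in 1 of the 10 that was lower (10.0%) and in 0 higher, beside 6.13 and 4.88% of all intervals.

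In the endoplasmic reticulum, 5 of 8 listed genes had an interval. Dnajc3 (Peak_31414, chr14:119336726-119337314), whose ER stress element is shown above, had 308, 299.7 and 250.3 RPKM in CTL and 278, 268 and 273 RPKM in H2A.Z dKO and a log2 fold change of -0.063 ± 0.10 (SE, 95% CI -0.27 to 0.15). Dnajb11, a partner of Hspa5 (Peak_33566, shared with Tbccd1), had 242, 240.0 and 233 RPKM in CTL and 199, 211 and 236 RPKM in H2A.Z dKO and a log2 fold change of -0.14 ± 0.10 (SE, 95% CI -0.35 to 0.067). Dnajc10, a reductase of misfolded proteins (Peak_3694), averaged 107 ± 2.87 RPKM (SD, n = 3) in CTL and 104 ± 6.82 RPKM (SD, n = 3) in H2A.Z dKO. The groups overlapped in all 7 intervals of the list, whose median log2 fold change was -0.063 with 0 called. Of all intervals 0.0% were called, and 6.13% were lower and 4.88% higher without overlap. An 18-bp interval in an intron of Dnajc3 (Peak_31415), with 8 counts in the lowest library, had the value farthest from 0 among them, -0.58 ± 0.32 (SE, 95% CI -1.24 to 0.073).

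Among cytosolic DnaJ genes, Dnaja1, a main partner of Hspa8, had the widest interval of the group at 1031 bp (Peak_7542, chr4:40668967-40669998), with 165, 173 and 177 RPKM in CTL and 161, 159 and 157 RPKM in H2A.Z dKO. All H2A.Z dKO values were below all CTL values, and the log2 fold change was -0.10 ± 0.093 (SE, 95% CI -0.30 to 0.088). Dnaja2 had its highest level in an intronic interval of 73 bp (Peak_18321), averaging 194 ± 41.7 RPKM (SD, n = 3) in CTL and 213 ± 60.2 RPKM (SD, n = 3) in H2A.Z dKO. Dnajb1, the stress-inducible DnaJ protein (Peak_18177), had 296, 265 and 315 RPKM in CTL and 301, 276 and 295 RPKM in H2A.Z dKO. Its groups overlapped, with a 95% CI of the log2 fold change from -0.21 to 0.21, which bounds a change to less than 1.5-fold.

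Dnajb5, a DnaJ protein that binds class II histone deacetylases in muscle, had 5 intervals. The upstream one (Peak_7651, chr4:42962378-42962825) was among the most open of the group, with 328, 311 and 350.2 RPKM in CTL and 297, 316 and 310.1 RPKM in H2A.Z dKO and a log2 fold change of -0.092 ± 0.098 (SE, 95% CI -0.29 to 0.11). Another 3 lay in its introns more than 500 bp after a TSS and were listed for the knockout alone in the authors' column of peak origin, yet their levels overlapped between the groups. The last of them (Peak_7655, 25 bp) had 295, 138 and 318 RPKM in CTL and 316, 319 and 305 RPKM in H2A.Z dKO. CTL replicate 2 alone was low there, and the log2 fold change was 0.33 ± 0.27 (SE, 95% CI -0.22 to 0.88). Dnajb6, which is mutated in a limb-girdle muscular dystrophy (Peak_10109, chr5:30062371-30062604), had 141, 146 and 141 RPKM in CTL and 184, 142 and 124 RPKM in H2A.Z dKO, and Dnajb2 (Peak_793), a neuronal and muscle co-chaperone, averaged 152 ± 8.01 RPKM (SD, n = 3) in CTL and 145 ± 29.4 RPKM (SD, n = 3) in H2A.Z dKO. In Dnajb4 (Peak_7220, 41 bp), whose interval is shared with Fubp1, the highest log2 fold change of the group, 0.41 ± 0.27 (SE, 95% CI -0.15 to 0.96), came with 152, 174 and 242 RPKM in CTL and 334, 231 and 162 RPKM in H2A.Z dKO, so that the groups overlapped. It was 0.096 without H2A.Z dKO replicate 1 and 0.62 without replicate 3. The 398-bp interval beside it, over the TSS (Peak_7219), had 1.3e-05 ± 0.12 (SE, 95% CI -0.26 to 0.26). Groups overlapped in all 21 Dnajb intervals, while of all intervals 6.13% were lower and 4.88% higher without overlap. Of the 21, 10 had a positive log2 fold change (47.6%), beside 52.5% of all intervals.

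The 46 Dnajc intervals had a median log2 fold change of -0.054, with 18 positive, 28 negative, 0 called and 0 at an unadjusted p under 0.05 by edgeR. Of all intervals 0.0% were called, and 2.31% were lower and 2.64% higher at that unadjusted p. Groups did not overlap in 3 that were lower in H2A.Z dKO (6.52%), at Dnajc5, Dnajc18 and Dnajc19, and in 2 that were higher (4.35%), at Dnajc14 and Dnajc27, beside 6.13 and 4.88% of all intervals. Dnajc5, the cysteine string protein of synaptic vesicles (Peak_5420, chr2:181254921-181255349), had 183, 195 and 190.5 RPKM in CTL and 175, 174 and 159 RPKM in H2A.Z dKO, each H2A.Z dKO value below each CTL value, and a log2 fold change of -0.15 ± 0.11 (SE, 95% CI -0.38 to 0.073). In the other direction, Dnajc27, a DnaJ protein with a Rab-like domain (Peak_26985, chr12:4082794-4083023), had 184, 178 and 191 RPKM in CTL and 220.5, 208 and 209.7 RPKM in H2A.Z dKO, each H2A.Z dKO value above each CTL value, and a log2 fold change of 0.22 ± 0.13 (SE, 95% CI -0.054 to 0.48). Its neighbouring interval at the TSS (Peak_26984) overlapped between the groups and had 0.097 ± 0.14 (SE, 95% CI -0.19 to 0.38). The Dnajc14 interval, 53 bp wide in an intron (Peak_23623), had 86.5, 98 and 113 RPKM in CTL and 142, 126 and 114 RPKM in H2A.Z dKO, and a log2 fold change of 0.40 ± 0.24 (SE, 95% CI -0.11 to 0.90). The 534-bp interval beside it, whose end it overlaps (Peak_23622), had 0.037 ± 0.10 (SE, 95% CI -0.17 to 0.25) and overlapping groups. Dnajc7, an Hspa and Hsp90 co-chaperone sharing its promoter with Nkiras2 (Peak_26022), averaged 182 ± 23.4 RPKM (SD, n = 3) in CTL and 187 ± 18.6 RPKM (SD, n = 3) in H2A.Z dKO. The third most open interval of the whole group was a 22-bp one of Dnajc18 (Peak_36910), with 305, 394 and 297 RPKM in CTL and 327, 284 and 346 RPKM in H2A.Z dKO and overlapping groups. At the Dnajc18 start, Peak_36907, Peak_36908 and Peak_36909 overlap in a chain and can share fragment ends. They also lie near a TSS of 1700066B19Rik. The first (Peak_36907, 177 bp) had overlapping groups and a log2 fold change of 0.00035 ± 0.19 (SE, 95% CI -0.40 to 0.40). The widest (Peak_36908, 429 bp) averaged 136 ± 6.36 RPKM (SD, n = 3) in CTL and 129 ± 9.92 RPKM (SD, n = 3) in H2A.Z dKO, with overlapping groups and a log2 fold change of -0.074 ± 0.12 (SE, 95% CI -0.33 to 0.18). The last (Peak_36909, 221 bp) had 184, 176 and 197 RPKM in CTL and 160.3, 168 and 169.6 RPKM in H2A.Z dKO, each H2A.Z dKO value below each CTL value, and a log2 fold change of -0.15 ± 0.14 (SE, 95% CI -0.44 to 0.13).

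Heat-inducible cytosolic genes were also listed together: Hspa1a, Hspa1b, Hspa8, Hsph1, Hsp90aa1, Hspb1, Hspb8, Dnaja1, Dnajb1 and Hspa4l had 22 intervals, and Dnaja4 had none. The list holds genes such as Hspa8 that are also expressed without stress. Their median log2 fold change was -0.10, with 10 positive and 12 negative. Groups did not overlap in 4 of them (18.2%), all lower in H2A.Z dKO, beside 6.13% of all intervals, and these were the nested pair at Hspb1, Hspa1b and Dnaja1. None was called. In the 6 intervals with a run of 3 alternating units the log2 fold change ran from -0.12 to 0.089. In the 22 with GAANNTTC in the 300 bases around their midpoint the median was 0.027, against -0.034 in the other 102. Groups did not overlap in 4 of the 22 that were lower (18.2%) and 0 higher. In the other 102 these were 5 (4.9%) and 3 (2.94%), beside 6.13 and 4.88% of all intervals. The 22 include overlapping intervals of Hspb1, Hspb2 and Hspb8, whose windows can hold the same pair. All 6 intervals with the run of 3 units were listed by the authors for both groups, as were 72 of the 124 chaperone intervals (58.1%), 52.9% of promoter intervals and 38.7% of all. Another 32 chaperone intervals (25.8%) were listed for the knockout alone and 20 (16.1%) for CTL alone, beside 31.2% and 15.9% of promoter intervals and 43.4% and 17.9% of all.

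Genes that regulate or assist these chaperones were examined from a list of 42, of which 36 had an interval. Those of Cryab and Hspbp1 all belong to the chaperone group, and the remaining genes had 83 intervals beyond it, described here. Again 0 was called, 33 log2 fold changes were positive, and the median was -0.048. At an unadjusted p under 0.05 there was 1 lower in H2A.Z dKO and 0 higher, beside 2.31 and 2.64% of all intervals. Groups did not overlap in 6 that were lower (7.23%) and 1 that was higher (1.2%), beside 6.13 and 4.88% of all. The interval past that unadjusted p was one of Bag4, a co-chaperone that releases Hspa proteins (Peak_17441), with 150.1, 114 and 149.9 RPKM in CTL and 63.3, 83.8 and 97.6 RPKM in H2A.Z dKO and a log2 fold change of -0.76 ± 0.28 (SE). Each H2A.Z dKO value was below each CTL value there. Of the Bag4 intervals on either side, Peak_17440 had 230.4 ± 16.7 RPKM (SD, n = 3) in CTL and 202 ± 15.7 RPKM (SD, n = 3) in H2A.Z dKO, whereas Peak_17442 had 136 ± 31.7 RPKM (SD, n = 3) and 146 ± 8.48 RPKM (SD, n = 3), with overlapping groups in both. Hsf1, the main heat shock factor, had 254, 247 and 248 RPKM in CTL and 203, 224 and 248 RPKM in H2A.Z dKO in its most open interval (Peak_32228) and Hsf2 had 271, 244 and 252 RPKM in CTL and 229, 229 and 226 RPKM in H2A.Z dKO (Peak_22181). In this Hsf2 interval each H2A.Z dKO value was below each CTL value. These 2 intervals were lower in H2A.Z dKO on average, with log2 fold changes of -0.15 ± 0.11 and -0.16 ± 0.10 (SE), neither past an unadjusted p under 0.05. Other intervals of both genes did not share one direction: log2 fold changes were -0.46 ± 0.25 and 0.14 ± 0.23 (SE) at Hsf1 (Peak_32227 and Peak_32229) and 0.075 ± 0.19 (SE) at Hsf2 (Peak_22182). Tcp1, a subunit of the cytosolic chaperonin, was the most open of the list (Peak_34724), averaging 368 ± 4.28 RPKM (SD, n = 3) in CTL and 345 ± 11 RPKM (SD, n = 3) in H2A.Z dKO, each H2A.Z dKO value below each CTL value. The interval of Bag3 with the highest level, the partner of Hspb8 (Peak_16734), averaged 234 ± 14.1 RPKM (SD, n = 3) and 230.2 ± 10.4 RPKM (SD, n = 3).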

How the data were processed

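Per the labels and the methods, the authors removed adapters (Trimmomatic), mapped the pairs to mm9 (Bowtie, given as Bowtie2 in the submitters' processing notes), discarded PCR duplicates (Picard), centred fragment ends on the Tn5 event and called peaks (MACS2). For merged intervals they deposited raw counts of fragment ends in each library. The deposited fold changes and p-values of their DESeq2 comparison were not used. The header lacks 1 column name, and 0 columns of sample values were left unused. Whether starts count from 0 is not given in the sources used here, and widths are end minus start. Sequences count both end positions, so an interval shown whole has 1 base more than its width.

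Intervals were matched to GENCODE vM1 on mm9. All 39768 were fitted with edgeR 4.0.16 in R 4.3.3 (TMM factors from 0.971 to 1.02, robust quasi-likelihood test, biological coefficient of variation 0.126) with Benjamini-Hochberg adjustment over all of them. SE is the absolute log2 fold change over the square root of F. The procedure was tested on simulated data. DESeq2 was 1.42.0, with Python 3.11.15, pandas 2.3.3 and Biopython 1.88. The members, gene lists, motifs and named genes (listed chaperones at their most open interval, the 3 smallest p in each direction and the 3 highest levels) were chosen with earlier results of these data known. A few further intervals (neighbours of those named, others whose groups did not overlap, and partner genes with the smallest p or highest level) were chosen after their values were seen. Alternatives were other scalings, DESeq2, a count minimum of 20, a replicate block, other member rules and each library left out. Errors reflect 3 libraries per group and leave PCR copies out of account.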

Additional observations from a re-analysis of the deposited data

How the results depend on the processing

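The number of chaperone intervals called at an adjusted p under 0.05 was 0 under every alternative run, from 0 to 0 with single libraries left out. The median log2 fold change ran from -0.052 to 0.011 with single libraries left out, and was -0.021 with median-of-ratios factors, -0.025 with totals only, -0.024 with DESeq2 and -0.0015 over the 113 intervals that reached 20 counts in all libraries. With other member rules it was -0.026 within 500 bp, -0.023 with any base within 1 kb, -0.026 from coding transcripts only and -0.026 without overlapping intervals. All of these differ from the value given by less than 0.0496, the larger SD of the per-library median. With the replicate number as a replicate block, 0 were called, 3 had an unadjusted p under 0.05 (beside 4.42% of all intervals) and the median was -0.021. Whether the numbers pair the samples is not known. Deviations of same-numbered libraries correlated at -0.0977, -0.053 and -0.0323, and those of other pairs at -0.0526 to 0.0905. These values cannot decide it, since deviations from the mean of so few libraries are tied to each other. The count at an unadjusted p under 0.05, 2 as given, was 0 to 7 with single libraries left out, beside 3.18 to 7.95% of all intervals. Of the 35 named intervals, 23 kept the sign of their log2 fold change in every alternative that could test them (33 passed the count filter), and 12 changed it, each with a single library left out and in no other setting. The ranges over libraries left out were -0.19 to 0.089 for Dnajb2 (Peak_793), -0.073 to 0.015 for Dnajc10 (Peak_3694), -0.098 to 0.19 for Dnajb6 (Peak_10109), -0.0072 to 0.14 for Hspb8 (Peak_11309), -0.064 to 0.058 for Dnajb1 (Peak_18177), -0.060 to 0.34 for Dnaja2 (Peak_18321), -0.069 to 0.13 for Hspa8 (Peak_19751), -0.13 to 0.12 for Hspb2 (Peak_20039), -0.051 to 0.13 for Dnajc7 (Peak_26022), -0.065 to 0.11 for Hsp90aa1 (Peak_28331), -0.080 to 0.32 for Hspa13 (Peak_34227) and -0.12 to 0.090 for Dnajc18 (Peak_36910). The largest of these 12 was 0.19 as given, and for none was the cause tested. Narrow intervals limit the depth: 11 of 124 had fewer than 20 counts in some library.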
